A study of Mus musculus with 12 samples.

Results

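The mammalian circadian clock was described here at 10 genes: Clock, Arntl, Per1, Per2, Per3, Cry1, Cry2, Nr1d1, Nr1d2 and Dbp. They were taken by name as the core loop of the clock and its best known output gene from 21938 protein-coding genes, by a rule that uses no peak value but was set with earlier results of these data known. Each was located by the GENCODE M21 annotation of the mouse genome build GRCm38, which also gave chromosome, exon and start site. A peak counted for a gene when it overlapped the gene body or the 3 kb on either side of any annotated start site of the gene.

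The clock is a feedback loop of transcription. CLOCK and BMAL1, the product of Arntl, bind as a pair to E-boxes and activate the Per and Cry genes, whose products return to the nucleus and repress the pair. A second loop runs through the nuclear receptors REV-ERB alpha and beta, the products of Nr1d1 and Nr1d2, which repress Arntl at elements called ROREs. In white fat, as in other peripheral tissues, these genes cycle over the day, and the levels of Nr1d1 and Dbp swing widely.

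The data were chromatin immunoprecipitation sequencing (ChIP-seq) of MOF, also named KAT8, the acetyltransferase that acetylates lysine 16 of histone H4. The tissue was visceral white adipose tissue (WAT) of C57BL/6 mice aged 8 weeks on a standard diet. Mof+/+ littermates carried both copies of Mof, and Mof+/- mice were heterozygous for loss of Mof. The 12 libraries formed 6 groups of 2, which were MOF ChIP, histone H3 ChIP and input chromatin of each genotype. The hour at which tissue was collected is not given in the sources used here, so no phase of the day can be attached to any value.

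The values used were 1 peak list per genotype, which holds no value per library, and signal tracks of single libraries were not analysed here. The lists alone give no test of a difference between genotypes, and every comparison of them is a description. Of the Mof+/+ list, 19753 of 19773 peaks lay on assembled chromosomes, against 716 of 731 in the Mof+/- list. Peaks of Mof+/+ reached down to a −log10 p of 3.25, and those of Mof+/- to 4.72. Input background was never below 3.52 fragments for Mof+/+ or 2.26 for Mof+/-. The part of this difference in depth and threshold in the results below was not tested. Among marker genes of the tissue, 7 of 8 adipocyte genes held a Mof+/+ peak, and Lep, which encodes leptin, held none. A Mof+/+ peak was also listed at 5 of 5 B cell genes, 5 of 5 T cell genes, 1 of 3 macrophage genes, 0 of 3 hepatocyte genes and 1 of 3 neuron genes, where 44.5% of protein-coding genes had one. In bulk tissue, a signal from fewer cells and a weaker signal per cell cannot be told apart.

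All 10 clock genes held a Mof+/+ peak, against the same 44.5% of protein-coding genes. A Mof+/- peak was listed at 2 of the 10, Nr1d2 and Dbp, where 1.89% of protein-coding genes had one. The 10 genes held 12 Mof+/+ peaks and 2 Mof+/- peaks. Of the 12 Mof+/+ summits, 11 lay within 1 kb of an annotated start site of the gene. The exception was a second, narrow peak deep in the body of Per1. The share of genes with a Mof+/+ peak rose with the CpG content of the gene start, to 77.1% in the richest of 10 equal classes of protein-coding genes. The clock genes had a median of 86.5 CpG in the 1001 bp around the gene start, against 41.0 over all protein-coding genes. The range among them ran from 32 CpG at Nr1d1 to 134 at Cry1.

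Strength was read from the fold enrichment at the summit, which the peak caller defines as fragments plus 1 over input background plus 1. The 12 peaks had a median fold of 4.54, against 3.40 over all Mof+/+ peaks. Taking the strongest peak of each gene, the median was 4.53 over the clock genes and 3.98 over all protein-coding genes with a peak, and 7 of the 10 lay above the latter. In order, the strongest folds were 7.08 at Nr1d2, 6.19 at Dbp, 5.97 at Nr1d1, 5.53 at Per1, 4.65 at Per3, 4.42 at Cry2, 4.20 at Per2, 3.54 at both Clock and Arntl, and 2.43 at Cry1. At every strongest peak but that of Cry1, the background was 3.52, the lowest value of the Mof+/+ list. Among those genes the order of folds is therefore the order of fragment numbers. Fragment numbers behind these folds were small, and the counting intervals of any 2 neighbours in this order overlapped. The upper 4 places were held by the REV-ERB genes, Dbp and Per1, and the activators Clock and Arntl stood near the lower end. The interval of Clock and Arntl, 8.40 to 24.7 fragments, overlapped those of all 4, including Nr1d2 at 21.1 to 44.0. The counts thus do not separate these 4 genes from the activators.

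**Figure D1:**
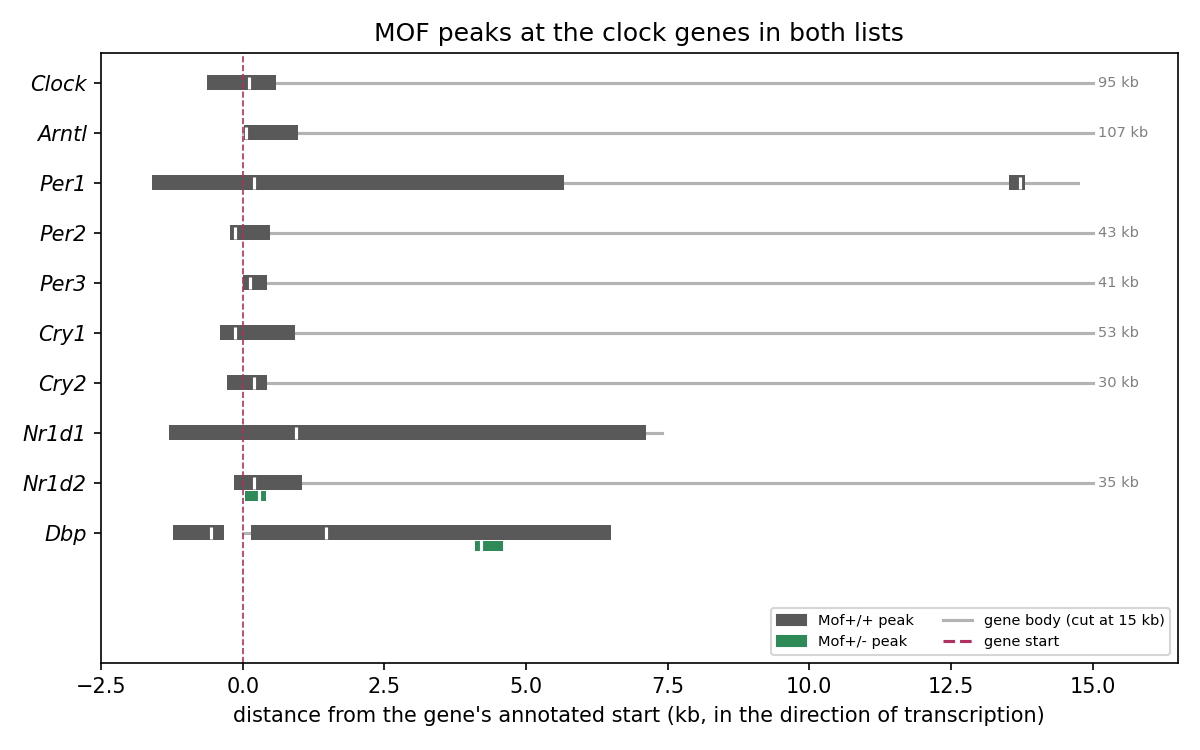
Position of every peak at the 10 clock genes, in kb from the annotated start of each gene in the direction of transcription. Grey bars are Mof+/+ peaks, green bars Mof+/- peaks and white ticks their summits. Wide Mof+/+ peaks lie over Per1, Nr1d1 and Dbp, narrow ones at the starts of the other genes, and green bars appear only under Nr1d2 and Dbp.

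The activators came first. Clock (ENSMUSG00000029238.11) encodes the larger partner of the activating pair and lies on the minus strand of chromosome 5. Its peak, chr5:76304213-76305418 in GRCm38, was 1206 bp wide and had its summit in the 5′ UTR, 66 bp into the gene from the nearest start site. At the summit 15 fragments (95% Poisson interval 8.40 to 24.7) stood over a background of 3.52. A start site of the gene model Gm7467 lay within 1 kb, so the peak cannot be assigned to Clock alone. Arntl (ENSMUSG00000055116.8), which encodes BMAL1, held a peak of 957 bp at chr7:113207478-113208434 with the same fold, 15 fragments and background. Its summit lay in the 5′ UTR at -4 bp from a start site. Both peaks had a −log10 q of 3.11. The nearest Mof+/- peak lay 1056 kb from Clock and 214 kb from Arntl.

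The promoter of Arntl was searched for the RORE letters TAGGTCA and TGGGTCA on both strands, since REV-ERB proteins act on this gene. RefSeq promoters, which run from 250 bases before to 50 after a start in GRCm38.p6, matched 9 of the 10 genes in 13 entries, and Per2 was not matched. One RORE was found in an Arntl entry, and 6.45% of the 32851 promoters hold one of these letter runs. The 30 bases that end that entry, chr7:113207531-113207560 on the plus strand, lie inside the Mof+/+ peak and are shown with the RORE in capitals.
Arntl promoter: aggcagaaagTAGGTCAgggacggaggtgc
A match of letters is a description of the sequence and does not show that a factor was bound there.

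Among the repressors, Per1 (ENSMUSG00000020893.17), the Period gene that responds quickly to light and glucocorticoids, carried the widest peak of the 3 Period genes. Its main Mof+/+ peak covered 7274 bp, chr11:69093612-69100885, and only 45 peaks of the list were at least as wide. The summit lay in an intron, 206 bp into the gene, with 24 fragments (15.4 to 35.7) over 3.52 and a −log10 q of 9.0. The peak began 1605 bp before the gene start and ran 5668 bp into the gene, so that together with the second peak it covered 40.4% of the gene body. That second peak, chr11:69108740-69109025, was 286 bp wide and had a fold of 2.88 from 12 fragments, 8411 bp from the nearest start site. No Mof+/- peak lay within 300 kb of Per1.

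E-boxes, the letters CACGTG, read the same on both strands. The main Per1 peak held 5 of them. By the gene start used here, the outermost in GENCODE, 2 lay just upstream at -331 and -147 bp and the others in introns. The RefSeq promoters matched to Per1 lie inside the gene by this annotation. The E-box at 3569 bp falls in one of them, chr11:69098699-69098998. Of the 79 Mof+/+ peaks of 6 kb or more, 75.9% held at least 1 E-box and 6.33% held at least 5. The upstream pair is shown because it sits next to the summit, as chr11:69094873-69095082 on the plus strand with each E-box in capitals.
Per1 E-boxes: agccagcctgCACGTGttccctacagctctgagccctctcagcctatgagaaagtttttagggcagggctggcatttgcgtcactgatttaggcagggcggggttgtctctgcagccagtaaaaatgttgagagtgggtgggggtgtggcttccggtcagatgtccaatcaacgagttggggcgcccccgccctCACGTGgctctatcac

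Per2 and Per3, the other Period genes, had narrow peaks confined to their starts. The Per2 (ENSMUSG00000055866.9) peak was 710 bp wide at chr1:91458843-91459552, with 18 fragments (10.7 to 28.4) over 3.52. Its summit lay at -133 bp, outside the gene, and its −log10 q was 4.88. The Per3 (ENSMUSG00000028957.12) peak was the narrowest of the strongest peaks, 425 bp at chr4:151044245-151044669, with 20 fragments (12.2 to 30.9) over 3.52. Its summit fell in the 5′ UTR at 129 bp, and the interval also overlapped the annotated span of Camta1. The folds of the Period genes thus ran from 4.20 to 5.53, with overlapping intervals, while their widths differed by more than the folds did.

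Of the 9 clock genes matched to a RefSeq promoter, Per3 was the one with D-boxes in it. A D-box, searched as TTATGTAA and TTACGTAA on both strands, is the element bound by DBP and its relatives and by NFIL3, and 1.06% of all promoters hold one. Both Per3 copies lie in the 250 bases before the start, chr4:151044666-151044915 on the minus strand, given here in the direction of the gene with the D-boxes in capitals.
Per3 promoter: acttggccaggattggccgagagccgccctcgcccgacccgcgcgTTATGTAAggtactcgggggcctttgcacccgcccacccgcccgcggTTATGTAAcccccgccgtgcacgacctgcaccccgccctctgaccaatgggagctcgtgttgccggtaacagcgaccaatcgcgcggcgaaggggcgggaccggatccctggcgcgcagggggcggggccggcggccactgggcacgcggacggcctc
The Mof+/+ peak lay almost wholly on the transcribed side of this stretch, reaching 4 bp upstream of the gene start.

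Cry1 and Cry2 encode the cryptochromes, the stronger repressors of the CLOCK and BMAL1 pair. Cry1 (ENSMUSG00000020038.10) had the weakest of the strongest peaks. At chr10:85184148-85185472, 1325 bp wide, 20 fragments (12.2 to 30.9) stood over a background of 7.65, which gave a −log10 q of 1.77. The fragment number equalled that of Per3, and the higher background of Cry1 accounted arithmetically for the lower fold. The summit lay at -139 bp. Cry2 (ENSMUSG00000068742.11) had 19 fragments (11.4 to 29.7) over 3.52 in a peak of 706 bp at chr2:92433609-92434314, with its summit in a coding exon 197 bp from a start site and a −log10 q of 5.51.

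The Cry1 promoter held both an E-box and an E′-box, the related letters CACGTT or, on the opposite strand, AACGTG. Among all promoters 7.15% hold an E-box and 4.68% an E′-box. The 250 bases before the Cry1 start, chr10:85185055-85185304 on the minus strand, lay wholly inside the Mof+/+ peak and are shown with both elements in capitals.
Cry1 promoter: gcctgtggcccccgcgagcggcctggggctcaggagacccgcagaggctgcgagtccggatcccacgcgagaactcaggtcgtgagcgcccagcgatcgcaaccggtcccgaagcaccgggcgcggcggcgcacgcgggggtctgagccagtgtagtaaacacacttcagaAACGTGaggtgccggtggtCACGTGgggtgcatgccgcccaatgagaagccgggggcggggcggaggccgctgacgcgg
E′-boxes were also found in the RefSeq promoters of Cry2 and Nr1d1, and an E-box in that of an internal start of Per1.

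The REV-ERB genes held the first and the third place by fold. Nr1d1 (ENSMUSG00000020889.11) lies on the minus strand of chromosome 11 tail to tail with Thra, which encodes a thyroid hormone receptor. Its Mof+/+ peak, chr11:98768221-98776642, spanned 8422 bp and covered 96.1% of the gene body, and it also overlapped Thra. Only 30 peaks of the list were at least as wide. The summit, in an intron 933 bp from the start, had 26 fragments (17.0 to 38.1) over 3.52 and a −log10 q of 10.53. No Mof+/- peak was listed at Nr1d1, and the nearest lay 84.6 kb away.

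The Nr1d1 peak held 5 E-boxes, at -365, 1176, 1456, 1471 and 2292 bp from the gene start. The closest pair, in an intron and 15 bases apart from start to start, is shown with its surroundings as chr11:98773829-98773909 on the minus strand, in the direction of the gene with the E-boxes in capitals.
Nr1d1 E-boxes: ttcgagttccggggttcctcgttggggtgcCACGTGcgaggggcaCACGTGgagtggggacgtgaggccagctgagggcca

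Nr1d2 (ENSMUSG00000021775.11) had the strongest summit of the 10 genes and was present in both lists. In the Mof+/+ list the peak was 1207 bp wide at chr14:18238076-18239282, with 31 fragments (21.1 to 44.0) over 3.52 and a −log10 q of 14.70, and 195 of all peaks reached at least its fold. In the Mof+/- list it was 362 bp wide at chr14:18238726-18239087, with 14 fragments (7.65 to 23.5) over 2.26, a fold of 4.60 and a −log10 q of 3.38. The narrower peak lay wholly inside the wider one and took up 30.0% of it. Both summits fell in the 5′ UTR, 71 bp from each other. Fragments over background came to 8.81 (5.98 to 12.5) without the deletion and 6.19 (3.38 to 10.4) with it, and these counting intervals overlapped. Within the Mof+/- list 303 of 716 peaks had at least this fold.

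Just inside the Nr1d2 gene, the Mof+/+ peak held 3 E-boxes in an intron, 451, 554 and 599 bp from the gene start. Of the 2719 Mof+/+ peaks between 1 and 1.5 kb wide, 24.6% held at least 1 E-box and 0.883% held at least 3. They lie outside the Mof+/- peak, on its downstream side, and are shown as chr14:18238515-18238688 on the minus strand, in the direction of the gene with the E-boxes in capitals.
Nr1d2 E-boxes: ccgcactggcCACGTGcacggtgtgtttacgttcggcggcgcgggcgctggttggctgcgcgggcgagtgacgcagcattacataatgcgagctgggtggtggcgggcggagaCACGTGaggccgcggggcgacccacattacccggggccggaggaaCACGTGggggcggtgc

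Dbp (ENSMUSG00000059824.12), the output gene, encodes a bZIP factor that binds D-boxes and is a classic direct target of CLOCK and BMAL1. It had 2 Mof+/+ peaks. The upstream one, chr7:45703859-45704757, was 899 bp wide with its summit at -568 bp, 22 fragments (13.8 to 33.3) over 3.52 and a fold of 5.09. It overlapped Car11, a carbonic anhydrase related gene that has a start site within 1 kb of it. The main one, chr7:45705226-45711580, was 6355 bp wide, covered 97.3% of the gene body and ran into the 3′ end of Sphk2, a sphingosine kinase gene. Its summit lay in an intron 1473 bp from the gene start, with 27 fragments (17.8 to 39.3) over 3.52 and a −log10 q of 11.32. Only 69 peaks of the list were at least as wide.

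The Mof+/- peak at Dbp lay elsewhere in the gene. At chr7:45709193-45709681 it was 489 bp wide, with 14 fragments (7.65 to 23.5) over 2.44, a fold of 4.37 and a −log10 q of 3.07. Its summit was 4211 bp into the gene, in an intron near the 3′ end, and 2738 bp from the Mof+/+ summit. It covered 7.69% of the Mof+/+ peak and also overlapped Sphk2, so it cannot be assigned to Dbp alone. At Nr1d2 the Mof+/- peak was thus a promoter peak, and at Dbp it was not. The number of clock genes with a Mof+/- peak fell to 1 when peaks had to reach 1 kb around a start site, where 1.32% of protein-coding genes qualified.

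A stretch of Dbp with E-boxes and the Mof+/- summit are shown. The first, chr7:45707702-45707840 on the plus strand, holds 2 of the 3 E-boxes of the main Mof+/+ peak, in capitals, in an exon of a noncoding transcript of Dbp, and contains 16 CpG in 139 bases.
Dbp E-boxes: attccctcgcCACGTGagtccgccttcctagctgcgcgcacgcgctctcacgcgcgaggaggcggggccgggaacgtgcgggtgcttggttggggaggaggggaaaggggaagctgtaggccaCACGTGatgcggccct
The second is the 101 bases around the Mof+/- summit, chr7:45709249-45709349 on the plus strand, which contain a single CpG, in capitals. The same window held 3 CpG at the main Mof+/+ summit of Dbp and 1 at the Mof+/+ summits of Per1 and Nr1d1, and the median over all Mof+/+ summits was 3.00. At the upstream Dbp summit it held 7, and at the Mof+/+ summits of the other clock genes from 7 at Arntl to 16 at Clock and Cry1. The Mof+/- summit of Nr1d2 had 11.
Dbp Mof+/- summit: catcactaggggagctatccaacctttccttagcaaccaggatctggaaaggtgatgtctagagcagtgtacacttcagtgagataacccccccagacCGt

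**Figure D2:**
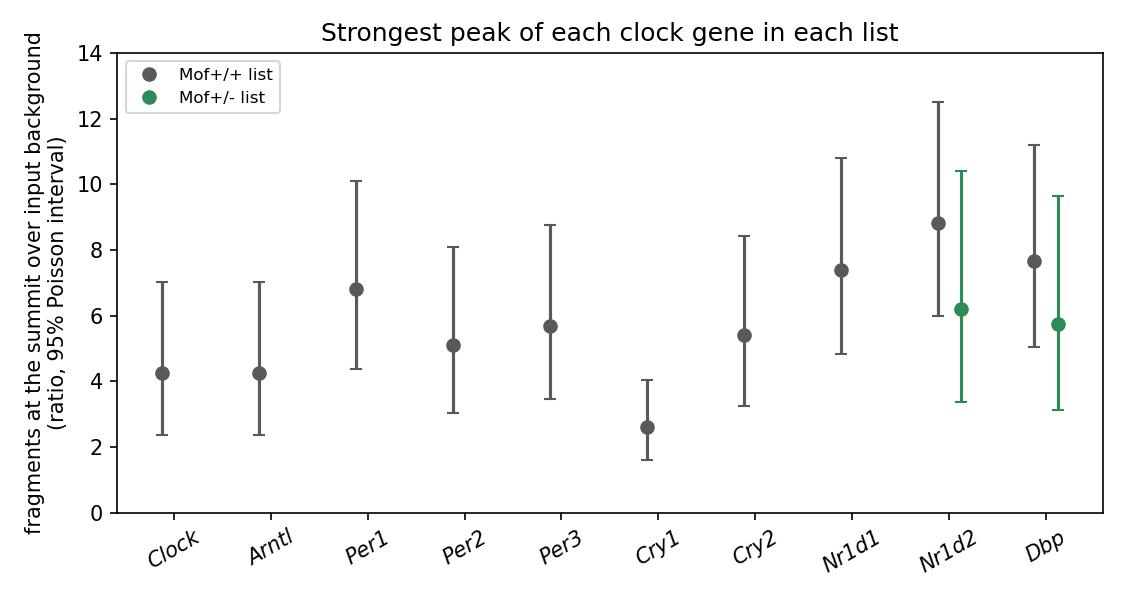
Fragments at the summit divided by input background for the strongest peak of each clock gene in each list, with 95% Poisson intervals of the fragment count. Grey points are the Mof+/+ list and green points the Mof+/- list. Nr1d2 is highest at 8.81 and Cry1 lowest at 2.61, and the green intervals of Nr1d2 and Dbp overlap the grey ones.

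Width set a few of these genes apart more than strength did. Per1, Nr1d1 and Dbp each had a Mof+/+ peak of 6 kb or more, a width reached by 79 peaks, or 0.400% of the list. The median width over the 12 clock gene peaks was 1082 bp, against 609 bp over all Mof+/+ peaks. Nr1d1 and Dbp were covered over at least 90% of their length, as were 105 protein-coding genes, or 0.479% of them. Both genes are short, and among the 2395 protein-coding genes of 5 to 8 kb 8 were covered to that extent, or 0.334%. At Clock, Arntl, Per2, Per3, Cry1, Cry2 and Nr1d2 the Mof+/+ peaks covered between 0.611% and 3.00% of the gene body. The 3 wide domains were not the genes richest in CpG: Nr1d1, Per1 and Dbp had 32, 47 and 52 CpG around the gene start, the lowest counts of the 10. These counts depend on the start used, which was the outermost in GENCODE. In RefSeq promoters of 300 bases, Nr1d1 held 9 CpG, Dbp 18 and Per1 16 and 21, where Nr1d2 held 20. CACGTG was found in 5 of the 12 peaks, against 15.8% of all Mof+/+ peaks, and 3 of those 5 were the wide ones. Per kb, E-boxes numbered 0.687 in the main Per1 peak, 0.594 in the Nr1d1 peak and 0.472 in the main Dbp peak, against a mean of 0.226 over all Mof+/+ peaks of 6 kb or more. The narrower peaks of Nr1d2 and Cry1 had 2.49 and 0.755 per kb, against a mean of 0.220 over the whole list, and the other 7 peaks held none. CACGTG contains a CpG. The Nr1d2 and Cry1 peaks held 101 and 125 CpG per kb, against a median of 24.5 over all Mof+/+ peaks. The part of CpG content in these E-box densities was not tested.

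**Figure D3:**
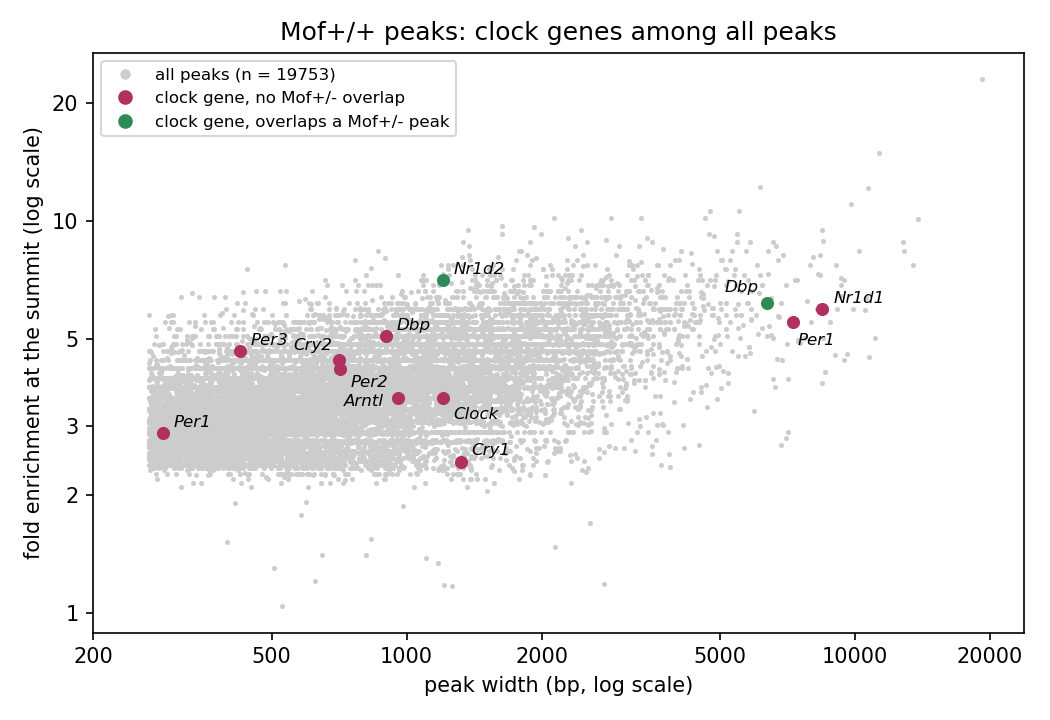
Width in bp and fold enrichment of all 19753 Mof+/+ peaks on log scales, with the 12 clock gene peaks named. Green points overlap a Mof+/- peak and red points do not. Per1, Nr1d1 and Dbp stand at the wide end near folds of 6, and Nr1d2 has the highest fold of the named peaks at a width of 1207 bp.

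Overlap with the Mof+/- list went with strength over the whole list. Of the 12 clock gene peaks 2, or 16.7%, overlapped a Mof+/- peak, against 2.44% of all Mof+/+ peaks. In the strongest of 10 classes of Mof+/+ peaks by p-value, which held 2119 peaks, the share was 10.6%, and 5 clock gene peaks, including both that overlapped, belonged to it. By the fold of the strongest peak, 20.3% of the protein-coding genes at 6 or more had a Mof+/- peak, and both clock genes in that class, Nr1d2 and Dbp, had one. Between 5 and 6 the share was 5.53%, and neither Per1 nor Nr1d1 had one. Below 4 it was 2.02%, and Clock, Arntl and Cry1 had none. Of the 79 peaks of 6 kb or more, 48.1% overlapped a Mof+/- peak, and of the wide clock gene peaks the Dbp peak did while those of Per1 and Nr1d1 did not.

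A peak missing from the Mof+/- list does not show a site without MOF. The lowest background of that list was 0.642 times that of the Mof+/+ list. In a calculation chosen after the values were seen, each strongest Mof+/+ summit and its background were multiplied by this ratio, which is not a measured depth. The scaled summits of Clock, Arntl and Cry1 had −log10 p values of 3.90, 3.90 and 2.76, below the 4.72 of the weakest Mof+/- peak. The scaled summits of the other 7 genes reached between 5.33 at Per2 and 12.23 at Nr1d2, and 5 of those genes, Per1, Per2, Per3, Cry2 and Nr1d1, had no Mof+/- peak. Over the whole list 30.1% of Mof+/+ peaks reached that level and 5.73% of them overlapped a Mof+/- peak. The scaling leaves out counting error, and the part of depth in the missing peaks was not tested. Per2 passed with 11 whole fragments after scaling, equal to the fewest at a Mof+/- peak with the lowest background.

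Further genes of the clock pathway were examined for context. Of 17, 13 held a Mof+/+ peak and 1 a Mof+/- peak, where 44.5% and 1.89% of protein-coding genes did. Among the other transcription factors 7 of 10 held a Mof+/+ peak, and among the kinases and ubiquitin ligase subunits that set the stability of PER and CRY proteins 6 of 7 did. The highest folds were 5.97 at Tef, a relative of Dbp, 5.53 at both Bhlhe40, a repressor of E-box genes, and Fbxw11, a ubiquitin ligase subunit, 5.31 at Bhlhe41, a relative of Bhlhe40, and 5.22 at Gsk3b, a kinase gene. The fold of Tef rested on 26 fragments (17.0 to 38.1) over 3.52, the same values as at the Nr1d1 summit. The Bhlhe40 peak had its summit at -470 bp and also overlapped the gene models 0610040F04Rik and Gm17055. The Bhlhe41 peak also overlapped the gene model Gm43909, so neither peak can be assigned to the named gene alone. Ciart, a repressor of the CLOCK and BMAL1 pair, was the gene with a Mof+/- peak. At Ciart the Mof+/- peak had 13 fragments (6.92 to 22.2) over 2.26 and a fold of 4.29 at -239 bp, and the Mof+/+ peak 22 fragments (13.8 to 33.3) over 4.87 and a fold of 3.92. Both also overlapped the noncoding gene model C920021L13Rik. No peak was listed at Npas2 and Arntl2, the paralogs of Clock and Arntl, at the nuclear receptor gene Rorb, or at Fbxl21.

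**Figure D4:**
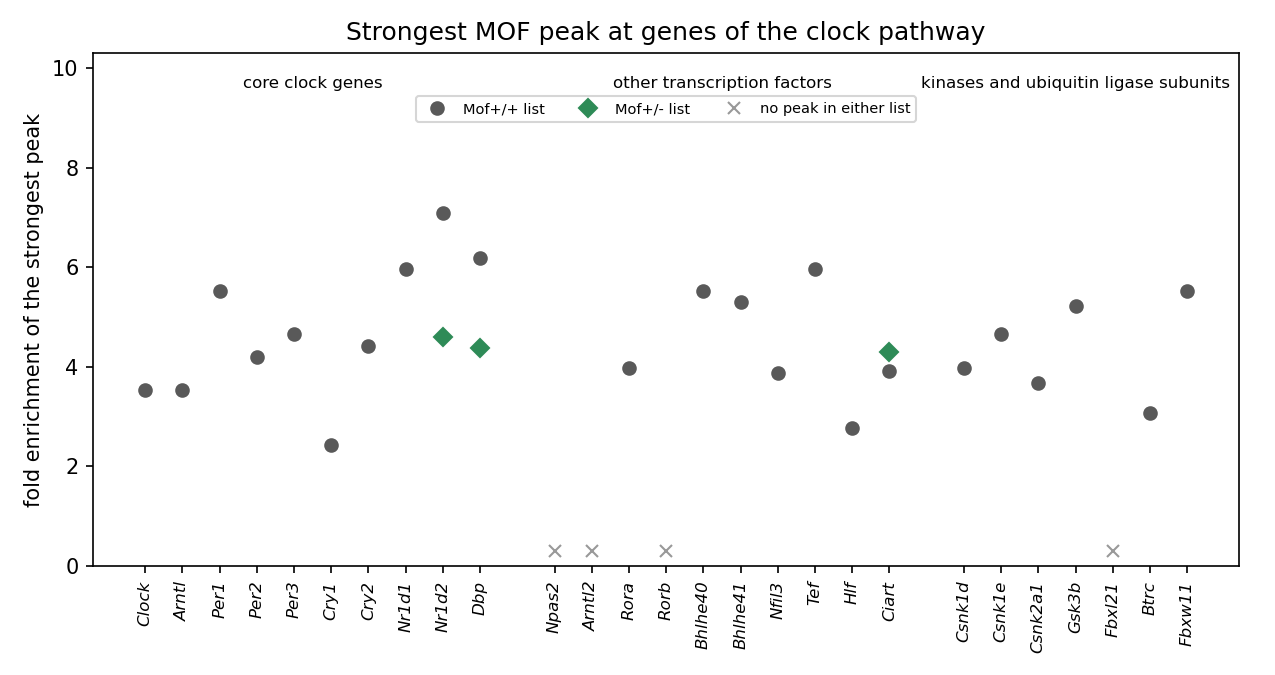
Fold enrichment of the strongest peak at each of the 10 core clock genes and 17 further genes of the pathway. Grey circles are the Mof+/+ list, green diamonds the Mof+/- list and crosses genes with no peak in either list. Tef is highest of the further genes at 5.97, and diamonds appear at Nr1d2, Dbp and Ciart.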

How the data were processed

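MOF ChIP-seq of visceral WAT was represented by 1 deposited peak list per genotype. Per the methods, the authors mapped read pairs to GRCm38 (mm10) with snakePipes and called narrow peaks with MACS2 2.1.1.20160309.3 against input at a q-value of 0.1. Whether replicate libraries were pooled for peak calling is not given in the sources used here. The reporting summary gives 2 littermates per genotype, as the labels do, and the design text 3 Mof+/- animals. The methods describe a merge of peaks within 1000 bp, but both Dbp peaks lie closer than that, so this list was not so merged. Chromatin had been cut with an enzyme that recognises RGCY, in addition to sonication, and an effect of cut sites on recovery was not tested. RGCY occurred 25.9 times per kb in the median clock gene peak and 21.2 times in the median of all Mof+/+ peaks.

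The deposited values used were the fold enrichment (a ratio of fragments plus 1 to background plus 1), −log10 p-value and −log10 q-value of each peak, and the offset of its summit. From fold and p the fragments and background at each summit were solved, for all but 1 peak of each list. The 95% Poisson intervals cover counting error only, and fragments are not independent molecules. Depth per library is not in the lists. Genes were taken from GENCODE M21, and an overlap of 1 bp counted. The wider gene lists, the 6 kb width and the scaling of summits were set with values in view, and the members and all lists were chosen with earlier results of these data known. All 10 members were named, and of the wider list those with a Mof+/- peak, those without a Mof+/+ peak and the highest 5 by fold. Some genes of the wider list are not reported here. Signal of single libraries, including H3 and input, was not analysed here. Calculations used Python 3.11.15, numpy 2.4.6, scipy 1.17.1 and pandas 2.3.3, with matplotlib 3.10.9 for figures, and the solving step was tested on simulated data.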

Additional observations from a re-analysis of the deposited data

How the results depend on the processing

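The counts of clock genes with a peak were recomputed under other windows, q-values and overlaps. All 10 had a Mof+/+ peak under each window tried, where 41.0% to 48.3% of protein-coding genes did. The number was 9 at a q-value of 0.01 (40.6% of protein-coding genes), at 0.001 (34.2%) or, in an alternative chosen after seeing the data, with Mof+/+ peaks required to reach the threshold that Mof+/- peaks had met (38.9%). The gene lost was Cry1. Clock genes with a Mof+/- peak numbered 1 within 1 kb of a start site (1.32% of protein-coding genes), which leaves out the Dbp peak by construction, and 2 under every other window and q-value tried (1.03% to 2.38%). When an overlap had to cover 50% of both peaks, 0 clock gene peaks overlapped a Mof+/- peak in place of 2, because the Mof+/- peaks are far narrower. The strongest fold of each gene was the same whether chosen by p-value or within 1 kb of a start site. In the wider list 12 or 13 of 17 genes held a Mof+/+ peak under the settings tried. No paired analysis was possible because the peak lists used here hold no values per replicate, and leaving out a library was not run for the same reason. The fewest fragments at a Mof+/- peak with the lowest background were 11, and the part of depth in the difference between the lists was not tested.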

Other observations

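Beyond the 3 kb windows, the nearest further Mof+/+ peaks lay close to 4 of the clock genes. One began 520 bp downstream of Per1 with a fold of 3.10. Another, 1495 bp downstream of Per2 with a fold of 3.75, had its summit 392 bp from a start of Hes6, which encodes a transcriptional regulator of the HES family. At Dbp a peak of fold 4.42 lay further downstream, with its summit 55 bp from a start of Sphk2. Nr1d1 had a peak of fold 4.25 at 6926 bp upstream, and 6 further peaks in all lay within 20 kb of it. Clock, Arntl, Cry1, Cry2 and Nr1d2 had no further Mof+/+ peak within 20 kb, and Per3 had 1, at the start of Vamp3.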
